A study of Homo sapiens with 12 samples.

Results

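The genes described are PTGS2 and 8 other genes of prostaglandin synthesis, signalling and breakdown, 9 of the 19973 genes in the expression table. PTGS2 was picked because it switched on when ARv7 was depleted in 22Rv-1 cells, so its values in that comparison are a description and carry no test. The other 8 were taken by name for their place in the pathway: PLA2G2A, PTGS1, PTGES, PTGES2, PTGDS, PTGER2, PTGER4 and HPGD. They too were chosen with earlier results of these data known, so their tests are not those of a set fixed beforehand. All 9 had a row in the table. On GRCh38 the protein-coding genes lie at chr1:19975431-19980416, minus strand (PLA2G2A, ENSG00000188257), chr9:122370530-122395703, plus strand (PTGS1, ENSG00000095303), chr1:186671791-186680423, minus strand (PTGS2, ENSG00000073756), and chr4:174490175-174523154, minus strand (HPGD, ENSG00000164120). The synthases lie on chromosome 9, at 129738331 to 129753042 (PTGES, ENSG00000148344), 128120693 to 128128462 (PTGES2, ENSG00000148334) and 136975092 to 136981742 (PTGDS, ENSG00000107317). The receptor genes lie at chr14:52314305-52328598 (PTGER2, ENSG00000125384) and chr5:40679915-40693735 (PTGER4, ENSG00000171522), both on the plus strand.

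Prostaglandins are lipid signals made from arachidonic acid, which phospholipases release from membranes. The cyclooxygenases, encoded by PTGS1 and PTGS2, turn it into an unstable intermediate, and terminal synthases turn that intermediate into prostaglandin E2, prostaglandin D2 and related products. The products act on receptors of nearby cells and are inactivated after uptake by a dehydrogenase encoded by HPGD. PTGS1 is described as the steadily expressed form and PTGS2 as the inducible form, raised by inflammatory and growth signals and often raised in epithelial tumours.

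RNA was sequenced from 2 human prostate cancer lines, C4-2, which descends from LNCaP, and 22Rv-1, which came from a relapsed xenograft and makes ARv7 by itself. ARv7 is a splice variant that occurs in prostate cancer. The 4 groups of 3 libraries were C4-2 cells infected with lentivirus for ARv7 overexpression (ARv7), C4-2 cells infected with the vector control lentivirus (control), 22Rv-1 cells infected with lentivirus carrying a hairpin for ARv7 depletion (shARv7), and 22Rv-1 cells infected with the shcontrol lentivirus (shcontrol). All 4 groups were thus infected, and all grew in RPMI medium with fetal bovine serum. Puromycin selection is stated for the ARv7 and shARv7 cells. Dishes were plated in triplicate and no source used here gives the number of selected lines in a group, so p-values measure the spread between dishes only. Libraries held 12318529 to 14672948 counted reads.

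Levels below are in CPM, reads scaled to a common library total with TMM factors over all 12 libraries, with the SD over the 3 libraries of a group. Adjusted p values come from edgeR's quasi-likelihood test with Benjamini-Hochberg adjustment over all genes tested. The prostate luminal markers KLK3, a secreted protease, and KRT8, an epithelial keratin, were expressed in all 4 groups. KLK3 stood at 2538 ± 31.8 CPM in C4-2 ARv7 and 672 ± 43.2 CPM in C4-2 control, and at 23.4 ± 2.89 CPM in 22Rv-1 shARv7 and 14.98 ± 1.18 CPM in 22Rv-1 shcontrol. KRT8 stood at 292 ± 10.6 CPM in C4-2 ARv7 and 381 ± 53.5 CPM in C4-2 control, and at 476 ± 5.27 CPM in 22Rv-1 shARv7 and 325 ± 8.13 CPM in 22Rv-1 shcontrol.

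The promoters of the cyclooxygenase genes and HPGD are shown because the results turn on these 3 genes. Each is the stretch of 250 bases before the RefSeq start site on GRCh38.p14, printed 5′ to 3′ on the strand of its gene. All 9 genes matched the RefSeq promoter table. The PTGS2 window is chr1:186680424-186680673 (minus strand), that of PTGS1 chr9:122370283-122370532 (plus strand) and that of HPGD chr4:174522894-174523143 (minus strand). The HPGD start used by RefSeq lies 261 bases inside the gene start of the expression table. Capitals mark TATAAA, the TATA box, or TGACG, the core of the cyclic AMP response element, on either strand, so that CGTCA and TTTATA are these motifs on the other strand.
PTGS2: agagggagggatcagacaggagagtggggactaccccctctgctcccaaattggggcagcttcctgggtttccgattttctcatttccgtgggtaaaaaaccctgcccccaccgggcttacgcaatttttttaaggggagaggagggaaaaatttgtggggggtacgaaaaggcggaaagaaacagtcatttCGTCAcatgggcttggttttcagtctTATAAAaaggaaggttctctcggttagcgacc
PTGS1: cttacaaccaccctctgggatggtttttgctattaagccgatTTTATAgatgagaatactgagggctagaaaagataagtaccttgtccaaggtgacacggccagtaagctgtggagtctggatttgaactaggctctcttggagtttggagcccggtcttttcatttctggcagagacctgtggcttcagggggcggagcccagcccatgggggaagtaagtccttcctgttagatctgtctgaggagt
HPGD: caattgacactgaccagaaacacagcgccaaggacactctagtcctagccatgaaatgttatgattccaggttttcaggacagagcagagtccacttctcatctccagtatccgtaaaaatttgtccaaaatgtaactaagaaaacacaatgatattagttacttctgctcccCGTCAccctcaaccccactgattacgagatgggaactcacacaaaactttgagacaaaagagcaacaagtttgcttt
Only the PTGS2 promoter among the 9 held a TATAAA on the strand of its gene, at bases -32 to -27 before the start, and it held a TGACG on the opposite strand at -58 to -54. PTGS1 had a TATAAA far from its start, at -208 to -203 on the opposite strand. HPGD had a TGACG at -77 to -73 on the opposite strand, and PTGER2, not printed, one at -137 to -133. Of 35116 promoters of the same length, 10.7% held TATAAA and 21.2% held TGACG on either strand. None of the 9 held CACGTG (E-box, 6.34% of promoters), GGGACTT (the start of one NF-kB form, 4.34%) or AGAACA (one arm of an androgen response element, 12.4%), which says only that these letters are not in these windows. The PTGS2 window had 50.4% G and C with 9 CpG pairs, PTGS1 49.6% with 4 and HPGD 42% with 4, against medians of 58% and 11 over all promoters.

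PLA2G2A, a secreted phospholipase that frees arachidonic acid, was a gene of C4-2 cells only in these libraries. It had 275, 305 and 281 reads in C4-2 ARv7, against 1137, 1209 and 1213 in C4-2 control. It had 0 reads in every 22Rv-1 library of either group. In C4-2 the level was 20.9 ± 2.03 CPM with ARv7 and 88.7 ± 5.73 CPM in control, and the groups did not overlap. That was 4.27-fold lower with ARv7, a log2 change of -2.10 (SE 0.09; edgeR adjusted p = 8.99e-14). Between the control lines, PLA2G2A was at least 1144-fold lower in 22Rv-1 shcontrol than in C4-2 control, with 3 counts over the group as the floor for a group at 0. Fewer cells expressing a gene and less of its RNA per cell cannot be told apart in these bulk libraries.

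PTGS2 was the cyclooxygenase of the depleted 22Rv-1 cells. It had 438, 398 and 398 reads in 22Rv-1 shARv7, against 2, 2 and 1 in 22Rv-1 shcontrol. In C4-2 it had no read in the 3 ARv7 libraries and 5, 3 and 7 reads in the 3 control libraries. Only the 3 shARv7 libraries thus held PTGS2 above a trace level, and they lay close together, at 31.8, 29.2 and 27.0 CPM. The mean was 29.3 ± 2.39 CPM in 22Rv-1 shARv7 and 0.118 ± 0.0446 CPM in 22Rv-1 shcontrol (SD, n = 3 each). With 5 control reads in all, the ratio is loosely bounded: 260.5-fold by summed reads, with an exact 95% counting interval of 111 to 804. The fitted log2 change was 7.88 (SE 0.25), given as a description because the gene was chosen on it.

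In C4-2 the few PTGS2 reads fell to 0 in ARv7 libraries, against 15 in control libraries. With the floor of 3 counts over the group, PTGS2 was at least 4.68-fold lower with ARv7, a bound that covers counting error only. The gene had too few reads to pass the filter of the C4-2 fit. Without that filter the edgeR adjusted p was 0.00567, in 1 fit of all 12 libraries it was 0.000268, and DESeq2 gave an adjusted p of 0.0111. The level concerned was 3 to 7 reads per library, 0.376 ± 0.162 CPM in C4-2 control. Between the control lines, PTGS2 was 2.89-fold lower in 22Rv-1 shcontrol than in C4-2 control by summed reads, with a counting interval of 0.999 to 10.2 that includes no difference.

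PTGS1, the other cyclooxygenase, was lower where ARv7 was added and higher where it was depleted. It had 6, 3 and 6 reads in C4-2 ARv7, against 86, 71 and 93 in C4-2 control. In 22Rv-1 it had 17, 45 and 37 reads in shARv7, against 7, 7 and 9 in shcontrol. The groups did not overlap in either line, although the first shARv7 library, with 17 reads, stood well under the other two. In C4-2 the mean was 0.367 ± 0.137 CPM with ARv7 and 6.24 ± 0.995 CPM in control, 16.9-fold lower (log2 change -4.08, SE 0.34; edgeR adjusted p = 4.49e-09). In 22Rv-1 the mean was 2.35 ± 1.04 CPM in shARv7 and 0.535 ± 0.0615 CPM in shcontrol, 4.35-fold higher (log2 change 2.12, SE 0.42; edgeR adjusted p = 1.33e-05). Set in order, C4-2 control was highest, then 22Rv-1 shARv7, 22Rv-1 shcontrol and C4-2 ARv7, with the last 2 groups meeting at 0.480 CPM. The depletion change in 22Rv-1 minus the addition change in C4-2 was 6.18 on the log2 scale (SE 0.57; edgeR interaction adjusted p = 1.08e-11). Opposite signs on addition and depletion give such a difference by themselves, so it is no further result.

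**Figure D1:**
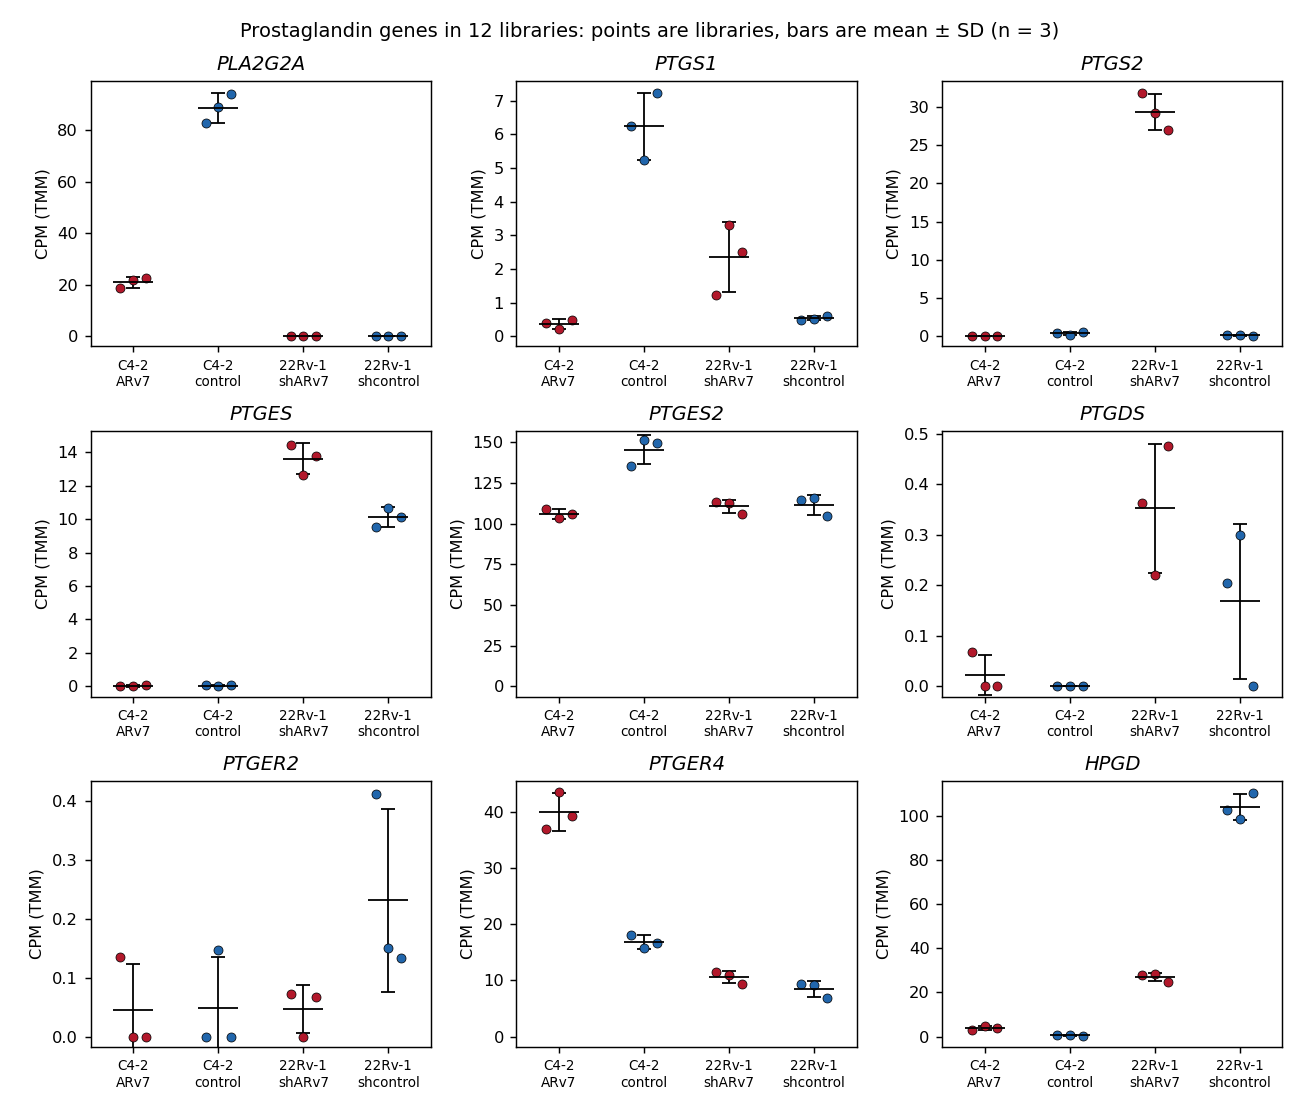
Level of each gene in the 12 libraries in CPM on a linear axis that differs between panels; red points are C4-2 ARv7 and 22Rv-1 shARv7 libraries, blue points C4-2 control and 22Rv-1 shcontrol libraries, and bars the mean ± SD of 3. PTGS2 stands out of 0 in the 3 shARv7 libraries only, PLA2G2A is at 0 in all 6 libraries of 22Rv-1, and HPGD is lowest in C4-2 control, at 0.542 CPM, and highest in 22Rv-1 shcontrol, at 103.7 CPM.

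Of the prostaglandin E2 synthases, PTGES, the inducible enzyme often coupled to PTGS2, was expressed in 22Rv-1 alone. It had 199, 172 and 203 reads in 22Rv-1 shARv7, against 139, 143 and 152 in 22Rv-1 shcontrol, and 1 read in all over C4-2 ARv7 and 2 over C4-2 control. The 22Rv-1 groups did not overlap, at 13.6 ± 0.922 CPM in shARv7 and 10.1 ± 0.584 CPM in shcontrol. PTGES thus rose 1.35-fold with depletion (log2 change 0.43, SE 0.13; edgeR adjusted p = 0.0044). Between the control lines it was higher in 22Rv-1 shcontrol than in C4-2 control, 225-fold by summed reads with an exact 95% counting interval of 61.9 to 1865 (edgeR adjusted p = 2.56e-14).

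PTGES2, a second membrane-associated synthase, was expressed in every group and was lower with ARv7 in C4-2. Its level was 108.8, 103.2 and 105.9 CPM in C4-2 ARv7, against 135.5, 151.7 and 149.5 CPM in C4-2 control. In 22Rv-1 it was 113.4, 112.5 and 106.1 CPM in shARv7, against 114.4, 115.7 and 104.5 CPM in shcontrol. The C4-2 groups stood apart and the 22Rv-1 groups overlapped. PTGES2 was 1.38-fold lower with ARv7 in C4-2 (log2 change -0.47, SE 0.06; edgeR adjusted p = 3.29e-06). In 22Rv-1 the log2 change was -0.01 (SE 0.06; edgeR adjusted p = 0.944). The depletion change in 22Rv-1 minus the addition change in C4-2 was 0.45 on the log2 scale (SE 0.09; edgeR interaction adjusted p = 4.44e-05). The fall in C4-2 gives a difference of about this size by itself, so it is no further result.

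PTGDS, the lipocalin-type prostaglandin D2 synthase, was near the limit of detection. It had 5, 3 and 7 reads in 22Rv-1 shARv7, against 3, 4 and 0 in 22Rv-1 shcontrol, and 1 read in all over the 6 C4-2 libraries. The 22Rv-1 ratio was 2.26 with an exact 95% counting interval of 0.868 to 6.56, and a difference was not detectable at this depth. AL807752.7, which overlaps PTGDS on the same strand, had 0 reads in every library.

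Of the receptors for prostaglandin E2 that raise cyclic AMP, PTGER4 was expressed in both lines and PTGER2 barely in either. PTGER4 had 547, 613 and 491 reads in C4-2 ARv7, against 249, 214 and 215 in C4-2 control. Every ARv7 library was above every control library, at 40.0 ± 3.36 CPM with ARv7 and 16.9 ± 1.19 CPM in control. PTGER4 thus rose 2.35-fold with ARv7 in C4-2 (log2 change 1.23, SE 0.10; edgeR adjusted p = 3.04e-09). In 22Rv-1 it had 11.5, 10.9 and 9.43 CPM in shARv7, against 9.32, 9.20 and 6.88 CPM in shcontrol. These ranges nearly met, and the log2 change of 0.33 (SE 0.15) did not pass the threshold (edgeR adjusted p = 0.0588), although 7 of the alternative settings called it. The depletion change in 22Rv-1 minus the addition change in C4-2 was -0.92 on the log2 scale (SE 0.18; edgeR interaction adjusted p = 4.46e-05). The rise in C4-2 gives a negative difference by itself, so it is no further result.

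TTC33 overlaps PTGER4 on the opposite strand, and without the strand of the libraries the reads of both genes cannot be told apart where they overlap. TTC33 stood at 22.7 ± 1.46 CPM in C4-2 ARv7 and 34.3 ± 3.40 CPM in C4-2 control, a log2 change of -0.60 (edgeR adjusted p = 3.84e-05), which runs against that of PTGER4. In 22Rv-1 its log2 change was 0.28 (edgeR adjusted p = 0.00222), the same sign as that of PTGER4. PTGER2 had at most 10 reads over any group: 1, 0 and 1 in 22Rv-1 shARv7, against 6, 2 and 2 in 22Rv-1 shcontrol, and 2 reads over each C4-2 group. Its 22Rv-1 ratio was 0.211 with a counting interval of 0.0225 to 0.991, and without the low-count filter its edgeR adjusted p was 0.221.

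HPGD, the enzyme that inactivates prostaglandin E2, moved against PTGS1 in both lines. It had 46, 66 and 46 reads in C4-2 ARv7, against 7, 12 and 3 in C4-2 control. In 22Rv-1 it had 386, 385 and 367 reads in shARv7, against 1499, 1316 and 1648 in shcontrol. No groups overlapped in either line, although the C4-2 control libraries were spread from 0.233 to 0.884 CPM. HPGD was 6.85-fold higher with ARv7 in C4-2, at 3.83 ± 0.803 CPM with ARv7 and 0.542 ± 0.327 CPM in control (log2 change 2.78, SE 0.38; edgeR adjusted p = 3.98e-06). It was 3.83-fold lower with depletion in 22Rv-1, at 27.1 ± 1.86 CPM in shARv7 and 103.7 ± 5.90 CPM in shcontrol (log2 change -1.94, SE 0.07; edgeR adjusted p = 2.69e-37). The depletion change in 22Rv-1 minus the addition change in C4-2 was -4.72 on the log2 scale (SE 0.29; edgeR interaction adjusted p = 1.54e-16). That too follows from the opposite signs. The lines themselves were far apart: HPGD was 210-fold higher in 22Rv-1 shcontrol than in C4-2 control by summed reads, with a counting interval of 139 to 336 (edgeR adjusted p = 4.58e-22).

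Levels can be set side by side between genes on the deposited FPKM, which are scaled to gene length. In 22Rv-1, PTGES2 stood at 19.2 ± 0.660 FPKM in shARv7 and 18.7 ± 0.972 FPKM in shcontrol. In 22Rv-1 shARv7, PTGS2 stood at 5.88 ± 0.459 FPKM, close to PTGES at 7.60 ± 0.487 FPKM and HPGD at 5.17 ± 0.351 FPKM, with PTGS1 at 0.429 FPKM. In 22Rv-1 shcontrol, HPGD stood at 19.1 ± 1.14 FPKM, in a range that overlapped that of PTGES2, with PTGES at 5.46 FPKM, PTGS1 at 0.0943 FPKM and PTGS2 at 0.0228 FPKM. The depleted cells thus held PTGS2 and HPGD transcripts at like levels, where the shcontrol cells held HPGD and only traces of the cyclooxygenases. In C4-2 the most abundant of the 9 transcripts in control cells was PLA2G2A at 49.9 ± 1.89 FPKM, above PTGES2 at 22.0 FPKM. In C4-2 ARv7 it was PTGES2 at 17.6 ± 0.480 FPKM, followed by PLA2G2A at 13.0 ± 1.29 FPKM and PTGER4 at 11.4 ± 0.941 FPKM.

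Counted together, 5 of the 9 genes passed the filter on low counts in C4-2 and all 5 were called, 2 higher (HPGD and PTGER4) and 3 lower (PTGS1, PLA2G2A and PTGES2) with ARv7. Among all 12783 genes tested there, 59.1% were called, 29.6% higher and 29.5% lower. In 22Rv-1, 6 passed the filter, PTGS2 included. Of the other 5, PTGS1 and PTGES were called higher, HPGD lower, and PTGES2 and PTGER4 were not called, where 48% of 13459 genes were called, 23.9% higher and 24.1% lower. PTGS2 was chosen on that comparison, so nothing is read from the share. Between 22Rv-1 shcontrol and C4-2 control all 6 that passed the filter were called, 2 higher (HPGD and PTGES) and 4 lower (PTGS1, PTGES2, PTGER4 and PLA2G2A) in 22Rv-1, where 83.2% of genes were called, 42.7% higher and 40.5% lower. Some genes passed the filter only through the group where they were high. These were PTGS1 and HPGD in C4-2, PTGS1 in 22Rv-1, and PTGS1, PTGES, HPGD and PLA2G2A between the control lines. Such genes pass because they differ, so nothing is read from any of these shares. Their adjusted p values depend on that passing too. Without the filter the edgeR adjusted p in C4-2 was 2.02e-25 for PTGS1 and 9.5e-12 for HPGD. In 22Rv-1 it was 6.02e-06 for PTGS1. The difference between responses could be tested for 4 and was called for each, where 50.2% of genes were called, 25.1% in each direction. PTGES and PLA2G2A were left out of that test because both groups of a line had at most 3 reads each, those of C4-2 for PTGES and of 22Rv-1 for PLA2G2A.

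**Figure D2:**
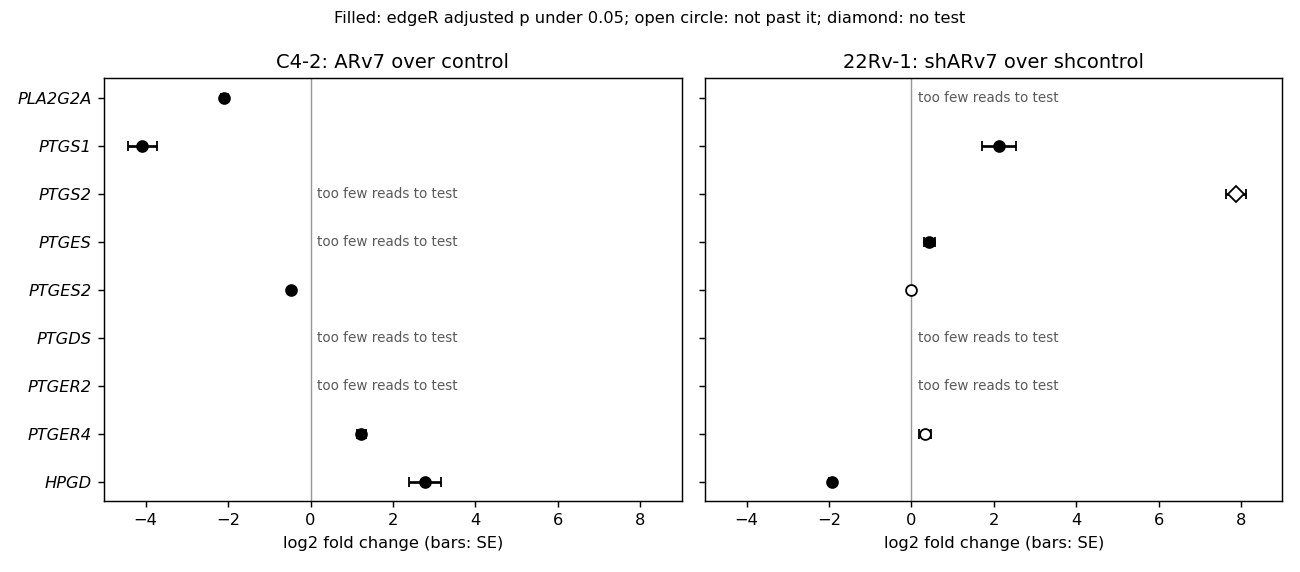
Log2 fold change of each of the 9 genes, ARv7 over control in C4-2 (left) and shARv7 over shcontrol in 22Rv-1 (right), with SE bars that are smaller than some points; filled points have an edgeR adjusted p under 0.05, open circles do not, and the diamond is PTGS2, which is not tested. PTGS1 is at -4.08 in C4-2 and 2.12 in 22Rv-1, and HPGD at 2.78 in C4-2 and -1.94 in 22Rv-1.

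The rest of the eicosanoid pathway was followed through a list of 57 further genes, of which 55 had a row of their own. In C4-2, 31 were tested, 11 were higher and 6 lower with ARv7 and 14 were not called, with a median log2 change of 0.05 against 0.01 over all genes. Scaled to total counts alone, which shifts the median of all genes in C4-2 to 0.15, the split was 16 higher and 5 lower. In 22Rv-1, 33 were tested, 10 were higher and 3 lower with shARv7 and 20 were not called, with a median log2 change of 0.19 against 0.01 over all genes. These counts stand beside 59.1% of all genes called in C4-2 and 48% in 22Rv-1, and nothing particular to the list is read from them.

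Among the phospholipases listed under arachidonate release, 3 of 9 tested were higher and 1 lower with ARv7 in C4-2. In 22Rv-1, 3 of 8 were higher and 0 lower with shARv7. PLA2G4A, the cytosolic phospholipase that supplies both cyclooxygenases, had the largest change of the list in 22Rv-1. It had 242, 235 and 307 reads in 22Rv-1 shARv7, against 19, 13 and 18 in 22Rv-1 shcontrol. No library of one group came near the other, at 18.5 ± 1.99 CPM in shARv7 and 1.16 ± 0.169 CPM in shcontrol (log2 change 3.99, SE 0.19; edgeR adjusted p = 1.18e-30). In C4-2 it had 15, 16 and 18 reads with ARv7, against 21, 14 and 11 in control, and no change was detected (log2 change 0.05, SE 0.38; edgeR adjusted p = 0.924). PLA2G15, a lysosomal phospholipase, rose in 22Rv-1 by 0.72 on the log2 scale (edgeR adjusted p = 0.000732). PLA2G4F, another of the cytosolic group, rose in C4-2 at 28.0 ± 3.66 CPM with ARv7 and 12.8 ± 2.07 CPM in control (log2 change 1.12; edgeR adjusted p = 4.07e-07). It rose in 22Rv-1 too, at 7.28 ± 1.25 CPM in shARv7 and 2.07 ± 0.354 CPM in shcontrol (log2 change 1.81; edgeR adjusted p = 1.5e-10).

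Of 5 further terminal synthases tested, 1 was higher and 1 lower with ARv7 in C4-2, and 3 were higher and 0 lower with shARv7 in 22Rv-1. The thromboxane synthase TBXAS1 fell in C4-2, at 11.1 ± 0.488 CPM with ARv7 and 46.8 ± 0.341 CPM in control (log2 change -2.08; edgeR adjusted p = 4.47e-13). In 22Rv-1 the changes of the 3 synthases called were small. PTGES3, a cochaperone with prostaglandin E synthase activity, rose by 0.19 on the log2 scale (edgeR adjusted p = 0.000236), CBR1, a carbonyl reductase acting on prostaglandins, by 0.52 (edgeR adjusted p = 0.000234), and PRXL2B, a prostaglandin F synthase, by 0.53 (edgeR adjusted p = 7.23e-06).

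All 5 further transport and breakdown genes in the table were tested: 2 were higher and 2 lower with ARv7 in C4-2, and 0 were higher and 2 lower with shARv7 in 22Rv-1. SLCO2A1, the prostaglandin uptake carrier that brings substrate to HPGD, had 35, 39 and 19 reads in 22Rv-1 shARv7, against 129, 117 and 107 in 22Rv-1 shcontrol, a log2 change of -1.89 (edgeR adjusted p = 1.87e-11). In C4-2 it had 44, 39 and 27 reads with ARv7, against 2, 2 and 9 in control, a log2 change of 2.98 (edgeR adjusted p = 1.85e-05). The uptake carrier and the dehydrogenase thus changed the same way as each other in each line, higher with ARv7 and lower with its depletion. In C4-2 both passed the filter on low counts only through the ARv7 group, so nothing is read from their shared direction there. ABCC4, an exporter of prostaglandins, fell in C4-2 at 466 ± 0.972 CPM with ARv7 and 801 ± 21.2 CPM in control (log2 change -0.79; edgeR adjusted p = 2.14e-10). PTGR1, which reduces oxidised prostaglandins further, fell in both lines, by 0.84 in C4-2 (edgeR adjusted p = 7.45e-05) and by 0.31 in 22Rv-1 (edgeR adjusted p = 6.35e-05) on the log2 scale. ZADH2, a related reductase, had a log2 change of 0.17 in C4-2 (edgeR adjusted p = 0.0366), a call lost in 8 alternative settings.

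The receptor group of the list, which also holds PTGFRN, not itself a prostaglandin receptor, had 2 genes tested in C4-2 and 4 in 22Rv-1. Only PTGFR, the prostaglandin F receptor, was called, in opposite directions. It stood at 370 ± 15.1 CPM in C4-2 ARv7 and 195 ± 4.71 CPM in C4-2 control (log2 change 0.91; edgeR adjusted p = 5.59e-11). In 22Rv-1 it stood at 8.37 ± 1.60 CPM in shARv7 and 24.3 ± 3.00 CPM in shcontrol (log2 change -1.54; edgeR adjusted p = 5.23e-18).

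Among the genes listed under the lipoxygenase branch, 4 of 10 tested were higher and 2 lower with ARv7 in C4-2. In 22Rv-1, 4 of 11 were higher and 0 lower with shARv7. ALOX15 rose in both lines, at 143 ± 7.58 CPM in C4-2 ARv7 and 77.4 ± 8.94 CPM in C4-2 control (log2 change 0.88; edgeR adjusted p = 6.86e-09), and at 29.5 ± 0.973 CPM in 22Rv-1 shARv7 and 5.93 ± 1.43 CPM in 22Rv-1 shcontrol (log2 change 2.32; edgeR adjusted p = 2.36e-27). ALOX12B fell in C4-2, at 2.06 ± 0.0856 CPM with ARv7 and 18.1 ± 1.25 CPM in control (log2 change -3.14; edgeR adjusted p = 4.61e-12). The leukotriene pathway genes LTA4H, a hydrolase, and MGST3, a microsomal glutathione transferase, rose in 22Rv-1 by 0.62 and 0.99 on the log2 scale (edgeR adjusted p = 5.68e-14 and 1.74e-11), and MGST3 also rose in C4-2 by 0.45 (edgeR adjusted p = 0.000265). ALOXE3 rose in 22Rv-1 by 0.69 (edgeR adjusted p = 0.00057). The C4-2 calls of ALOX12, a log2 change of 0.58 (edgeR adjusted p = 0.0376), and of LTB4R, a leukotriene B4 receptor, of -0.35 (edgeR adjusted p = 0.013), were each lost under several alternatives, among them leaving out 1 library.

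**Figure D3:**
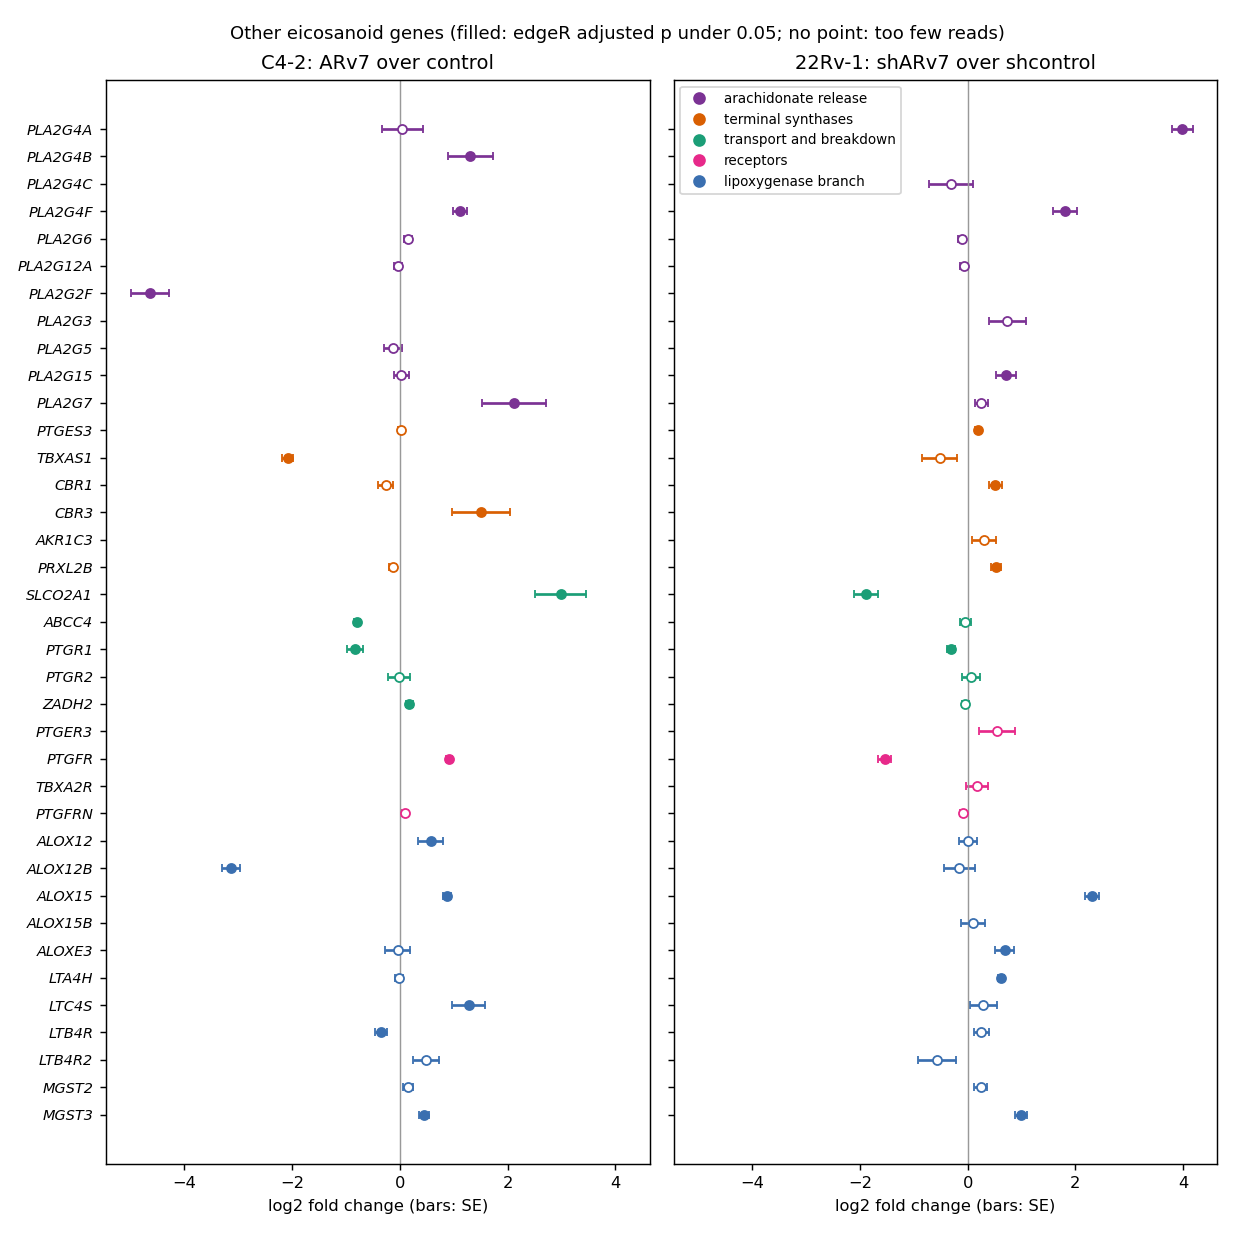
Log2 fold change with SE bars for the further eicosanoid genes tested in either line, ARv7 over control in C4-2 (left) and shARv7 over shcontrol in 22Rv-1 (right), coloured by role; filled points have an edgeR adjusted p under 0.05. PLA2G4A lies at 3.99 in 22Rv-1 and 0.05 in C4-2, SLCO2A1 at 2.98 in C4-2 and -1.89 in 22Rv-1, and ALOX15 above 0 in both.

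With the 9 genes included, 8 genes of the list were called in both lines. HPGD, PTGS1, PTGFR and SLCO2A1 went in opposite directions when ARv7 was added in C4-2 and depleted in 22Rv-1, and ALOX15, MGST3, PLA2G4F and PTGR1 went the same way. Among all genes called in both, 1999 of 3706 went in opposite directions. The comparisons share no library.

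Factors known to act on the PTGS2 promoter or its messenger RNA were listed too, 28 genes. In 22Rv-1, 25 were tested, 9 were higher and 9 lower with shARv7 and 7 were not called, where 23.9% of all genes were called higher and 24.1% lower, with a median log2 change of 0.00 against 0.01 over all genes. Scaled to total counts alone, the split was 10 higher and 6 lower. The smallest adjusted p values belonged to NFKB2, an NF-kB subunit, at 81.2 ± 4.50 CPM in shARv7 and 42.4 ± 2.05 CPM in shcontrol (log2 change 0.94; edgeR adjusted p = 4.85e-20), and JUNB, an AP-1 subunit, at 82.2 ± 4.11 CPM in shARv7 and 45.1 ± 0.92 CPM in shcontrol (log2 change 0.87; edgeR adjusted p = 9.14e-19). ZFP36, which promotes decay of messages such as that of PTGS2, rose by 0.82 (edgeR adjusted p = 4.12e-10), and FOS, also of AP-1, by 0.70 (edgeR adjusted p = 1.55e-06), on the log2 scale.

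In C4-2, 24 of these factors were tested, 7 were higher and 10 lower with ARv7 and 7 were not called, where 29.6% of all genes were called higher and 29.5% lower, with a median log2 change of 0.05. Scaled to total counts alone, the split was 9 higher and 7 lower. NFKBIA, the NF-kB inhibitor that is also its target, had the smallest adjusted p of the list, at 70.3 ± 2.24 CPM with ARv7 and 359.8 ± 17.1 CPM in control (log2 change -2.37; edgeR adjusted p = 8.9e-17). NFKB1 fell by 1.22 on the log2 scale (edgeR adjusted p = 8.61e-12), while NFKB2 rose by 0.75 (edgeR adjusted p = 6.12e-08). RBM3, an RNA-binding protein that binds the PTGS2 message, rose by 0.94 (edgeR adjusted p = 2.57e-11).

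The genes with a pattern most like that of PTGS2 were ranked by Pearson correlation of log2(CPM + 1) over the 12 libraries, among the 11954 genes whose mean reached 5 CPM in some group. The 12 points share their groups and the ranking is a description. INHBA, which encodes an activin subunit, came first with r = 0.995, with no read in either C4-2 group, 27.4 ± 2.67 CPM in 22Rv-1 shARv7 and 0.123 ± 0.157 CPM in 22Rv-1 shcontrol. AQP3, a water and glycerol channel, followed with r = 0.991, at 29.8 ± 1.64 CPM in 22Rv-1 shARv7 and 7.94 ± 1.16 CPM in 22Rv-1 shcontrol. PLA2G4A, the phospholipase described above, came next with r = 0.989. LPL, lipoprotein lipase, had r = 0.986, at 34.6 ± 1.13 CPM in 22Rv-1 shARv7 and 0.606 ± 0.237 CPM in 22Rv-1 shcontrol. CPE, carboxypeptidase E, had r = 0.984, at 249 ± 15.2 CPM in 22Rv-1 shARv7 and 78.6 ± 3.44 CPM in 22Rv-1 shcontrol, and BARX1, a homeobox factor, had r = 0.983. In all, 88 genes had r above 0.9.

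PLA2G4A is also the neighbour of PTGS2. On chromosome 1 of GRCh38, PTGS2 spans bases 186671791 to 186680423 on the minus strand and PLA2G4A bases 186828949 to 186988981 on the plus strand, so that their starts face away from each other across 148.5 kb. Genes starting within 1000 kb of the PTGS2 start were looked up after the values of both were seen, and the table has 7, these 2 included. PDC, PRG4 and HMCN1 had 19 reads or fewer over any group of 22Rv-1. TPR, a nuclear pore protein, stood at 414 ± 10.2 CPM in 22Rv-1 shARv7 and 424 ± 23.2 CPM in 22Rv-1 shcontrol (log2 change -0.03; edgeR adjusted p = 0.621). ODR4, which starts beside TPR, stood at 66.4 ± 3.15 CPM in shARv7 and 55.3 ± 3.19 CPM in shcontrol (log2 change 0.27; edgeR adjusted p = 0.000894). Changes of the size of those of PTGS2 and PLA2G4A were thus not seen in TPR or ODR4, the only other expressed genes of the window. Both start about 305 kb from the PTGS2 start, on the side away from PLA2G4A.

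**Figure D4:**
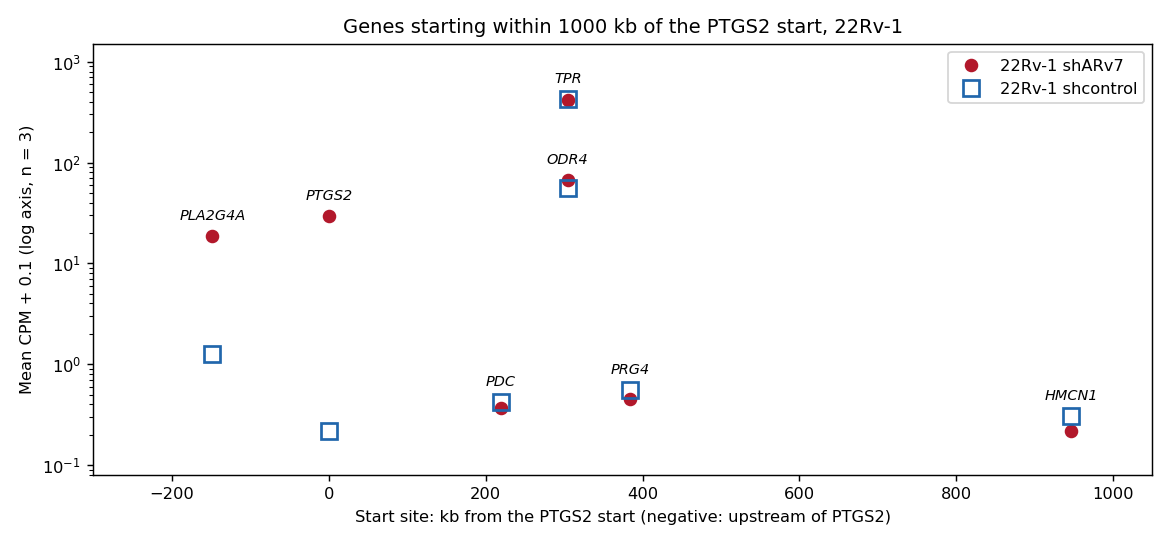
Mean level (CPM + 0.1, log axis, n = 3) of the 7 genes that start within 1000 kb of the PTGS2 start, by the distance of their start in kb, with shARv7 as filled red circles and shcontrol as open blue squares in 22Rv-1. Red and blue are far apart for PTGS2 and PLA2G4A and lie on or near each other for TPR, ODR4 and the 3 genes with few reads.

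Markers of other cell types were read beside these values because leukocytes and stromal cells can be rich in PTGS1 and PTGS2. The 6 macrophage and leukocyte markers summed to 1.25 to 7.62 CPM over 22Rv-1 shARv7 libraries and 0.754 to 1.07 CPM over 22Rv-1 shcontrol libraries, and to 0.926 to 1.28 CPM over C4-2 ARv7 and 2.80 to 3.24 CPM over C4-2 control libraries. The sums, though not each marker, were thus higher in the groups with more PTGS1 in each line. The shARv7 library with the highest sum, the first, had the fewest PTGS1 reads of its group. All 6 had reads in shARv7, while CD68 had none in shcontrol or in C4-2 ARv7. Of the defining markers, CD14 had 28, 4 and 7 reads in shARv7, against 1, 5 and 5 in shcontrol, so that the first shARv7 library held most of them and the groups overlapped. In C4-2 it had 1, 0 and 0 reads in ARv7, against 19, 17 and 18 in control. The other defining markers did not fall with it there: PTPRC had 13 reads over C4-2 ARv7 and 14 over C4-2 control, and CSF1R 24 and 19. In 22Rv-1, PTPRC had 43 reads over shARv7 and 5 over shcontrol, and CSF1R 29 and 14. The 5 fibroblast markers summed to 22.2 to 26.3 CPM in shARv7 and 39.4 to 43.0 CPM in shcontrol. LUM had 98 reads in shARv7 and 953 in shcontrol and DCN 7 and 100, while COL1A1 went the other way with 891 and 727. In C4-2 they summed to 15.2 to 17.4 CPM in ARv7 and 7.93 to 9.58 CPM in control. There COL1A1 had 475 reads with ARv7 and 327 in control, PDGFRB 180 and 14, and COL1A2 2 and 5. DCN and LUM had no read in C4-2 control and 3 each with ARv7. The 4 endothelial markers summed to at most 1.09 CPM in either 22Rv-1 group, with CDH5 and KDR at 0, and to 7.59 to 9.01 CPM in C4-2 ARv7 and 4.13 to 5.02 CPM in C4-2 control. In C4-2, VWF had 348 reads with ARv7 and 146 in control, and CDH5 1 and 0. KDR and PECAM1 went the other way, KDR with 1 and 31 reads and PECAM1 with 0 and 6. The part of these markers in the changes above was not tested.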

How the data were processed

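The deposited table holds read counts per gene, which the authors left unnormalised, and FPKM, for which the authors divided by gene length and by the sum of counts: each FPKM equalled the count scaled that way. Per the labels' protocols, reads were trimmed with Cutadapt 2.7. Alignment and counting settings, strand included, were not given in the sources used here. The submitters' processing notes name hg18, but coordinates of 19869 of 19876 identifiers found in GENCODE lay within 10000 bp of those on GRCh38, which is the build given here. Of 19974 lines, 1 had no gene identifier and was left out.

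Counts were tested with edgeR 4.0.16 in R 4.3.3 (filterByExpr, TMM, quasi-likelihood F-test, Benjamini-Hochberg over all genes tested, threshold 0.05), within each line, between the control groups, and in 1 fit of all libraries for the difference of responses. Tests use TMM factors of their own libraries, so fold changes can differ from the quotient of the printed CPM. Genes with few reads were given the ratio of summed CPM with an exact Clopper-Pearson interval at 95%, or, against a group at 0, a bound with 3 counts over that group as the floor, both on total counts and for counting error only, since PCR copies were not told apart. A count of 3 was 0.204 to 0.244 CPM in a library. The pipeline was tested on simulated data. The labels name no batch, and all 12 libraries were used.

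The members and lists were chosen with earlier results of these data known. Named genes were the 9 members, list genes past the threshold at a mean of at least 5 CPM, the 4 regulators with the smallest adjusted p in each line, and the 6 genes most like PTGS2. Some results are not reported here. Alternatives were total counts, DESeq2 1.42.0 and its size factors, no filter, a mean of at least 5 CPM, 1 fit of all libraries, a replicate block, limma 3.58.1 on log2(FPKM + 1) and log2(FPKM + 0.1), and leaving out each library.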

Additional observations from a re-analysis of the deposited data

Results flagged for a closer look

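For 4 of the 9 genes the shARv7 change in 22Rv-1 differed from the ARv7 change in C4-2. The test was the interaction term of 1 edgeR fit over all 12 libraries, signed as the shARv7 change minus the ARv7 change. The difference was 6.18 on the log2 scale for PTGS1, with changes of -4.08 in C4-2 and 2.12 in 22Rv-1. It was 0.447 for PTGES2, which changed by -0.47 in C4-2 and was not called in 22Rv-1 (-0.01). It was -4.725 for HPGD, with changes of 2.78 in C4-2 and -1.94 in 22Rv-1. For PTGER4 it was -0.918, with a change of 1.23 in C4-2 and 0.33, not called, in 22Rv-1. ARv7 was depleted in one line and added in the other, so the line and the kind of change cannot be told apart. A gene following ARv7 alike in both lines would not stand at 0 on this scale. For PTGES2 and PTGER4, the C4-2 change by itself gives a difference of the sign seen. For PTGS1 and HPGD, opposite signs on addition and depletion give a large difference by themselves. In the same fit 50.2% of all genes tested had such a difference.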

How the results depend on the processing

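No called result changed direction under any alternative run; the PTGES2 log2 change in 22Rv-1, which was not called, ran from -0.05 to 0.04. In C4-2 the number of the 9 genes called was 3 with a mean of at least 5 CPM required and with limma on log2(FPKM + 1) and on log2(FPKM + 0.1), against 5 as reported; these settings test fewer genes of low level. It was 6, with PTGS2 lower as the further call, with no filter on low counts, in 1 fit of all 12 libraries and by DESeq2. With a mean of at least 5 CPM required, 14 eicosanoid genes were called in C4-2, against 22, and 23 between 22Rv-1 shcontrol and C4-2 control, against 36. PTGER4 in 22Rv-1 passed the threshold in 7 settings, among them total counts (edgeR adjusted p = 0.0295), the filter at 5 CPM (edgeR adjusted p = 0.0463), both limma fits (adjusted p = 0.0294 and 0.0315), and without shARv7 replicate 3 (0.0404) or shcontrol replicate 1 (0.0416) or 2 (0.0483). The calls of ALOX12, ZADH2 and LTB4R in C4-2 were lost in 17 of the values tried. The ALOX12 call was lost without C4-2 ARv7 replicate 1 (edgeR adjusted p = 0.256) or 3 (0.0756) or control replicate 1 (0.0847) or 3 (0.0784), that of ZADH2 without any ARv7 replicate or control replicate 1 or 2 (0.0518 to 0.188), and that of LTB4R without control replicate 2 (0.161). The PTGS2 log2 change in 22Rv-1 was 2.75 and 5.61 by limma, where the pseudocount holds the low values up, and 7.59 to 8.06 with 1 library left out.

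With 1 library left out at a time, genes called ran from 6673 to 7870 in C4-2, 5793 to 6532 in 22Rv-1, 11022 to 11493 between control lines and 6658 to 7218 for the difference of responses. The 9 genes gave 5 calls in C4-2, 3 to 4 in 22Rv-1, 6 between control lines and 4 for the difference, and the eicosanoid list 19 to 23, 16 to 18 and 33 to 35. Replicate numbers did not pair the samples: deviations of same-numbered libraries correlated at -0.136 to 0.0144 in C4-2 and -0.134 to -0.000216 in 22Rv-1. With the replicate block, 7310 genes were called in C4-2 and 6203 in 22Rv-1, and 5 and 3 of the 9 genes. Scaling to total counts moved the share of calls that were higher in C4-2 to 67.1%, against 50% with TMM. The third C4-2 control library stood apart from the other two, with chi-square over degrees of freedom at 7.15 to 13, against 2.12 to 4.77 for the other pairs.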
